A study of Komagataella phaffii with 13 samples.

Results

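FLD (PAS_chr3_1028), FGH (PAS_chr3_0867) and FDH (PAS_chr3_0932) encode the enzymes that oxidize formaldehyde in the methylotrophic yeast *Pichia pastoris* (*Komagataella phaffii*). They were taken by identifier, with earlier results of these libraries known, so that the direction of their change is not independent evidence, and are 3 of the 5439 identifiers in the expression table. All 3 lie on chromosome 3 by their locus tags and none of them is next to another. All 3 were kept by the filter on low values, which retained 5100 genes whose mean over all libraries was 1 FPKM or more. FPKM counts sequenced fragments relative to transcript length and a size factor of the library.

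A cell growing on methanol first turns it into formaldehyde, a toxic aldehyde, in the reaction of alcohol oxidase (AOX). Formaldehyde can be assimilated into sugar phosphates through dihydroxyacetone synthase (DAS), or dissimilated to CO2. Dissimilation starts with formaldehyde bound to glutathione: FLD, the glutathione-dependent formaldehyde dehydrogenase, oxidizes this adduct to S-formylglutathione and yields NADH. FGH, the S-formylglutathione hydrolase, splits it into formate and free glutathione, and FDH, the formate dehydrogenase, oxidizes formate to CO2 and yields another NADH. The route both removes formaldehyde and supplies energy to a yeast that lives on a carbon source with a single carbon atom.

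RNA of 13 samples of strain GS115 was sequenced, 1 library for each condition. Per the study's methods, all of them come from a high-cell-density fermentation at production scale of a Mut+ strain that carries *Aspergillus niger* PhyA phytase behind the AOX1 promoter, so every group shares the transgene. B_10 was taken 10 h into the yeast cell culture, G_3 was taken 3 h into the glycerol feed and GM_2 was taken 2 h into the glycerol-methanol mixture feed, or GM phase. The methanol induction phase was sampled at 10 time points 12 h apart, from 12 h (M_12) to 120 h (M_120). The stage label of B_10 names bench-scale growth instead, and therefore G_3, the last library before methanol was added, served as the reference here. In the labels, the strain number increases from one methanol sample to the next and the RNA extraction is that of an animal organ; every sample was treated as GS115 yeast. As the 10 methanol libraries were drawn one after another from 1 culture, they are not replicates, so their spread describes time points and libraries, not separate fermentations. In such bulk samples, fewer cells using a gene and less RNA of it in each cell cannot be told apart.

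Between 23452894 and 42621774 fragments per library on annotated genes were recovered from the FPKM steps. By this estimate the 3 genes were covered by at least 2200 fragments in every library, the smallest number being that of FDH in B_10. Counting error alone would then be at most 2.13% of a value. Log2 fold changes were computed on FPKM + 1. Genes were called higher when this value was at least 1, in each of the 10 libraries where methanol induction was one side of the comparison. With 1 library in each reference condition, these comparisons carry no p-value.

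Before methanol was added, FLD was the most abundant of the 3. FLD was at 302 FPKM in B_10 and 358 FPKM in G_3, where it ranked 454 among all genes by FPKM. FGH was at 62.2 FPKM in B_10 and 103 FPKM in G_3. FDH was at 45.5 FPKM in B_10, the lowest of the 3, and at 134 FPKM in G_3, just above FGH. Thus, of the 3 transcripts, that of the first enzyme was the most abundant on glycerol. That of the enzyme that finishes the route was the scarcest of the 3 in the yeast cell culture.

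From B_10 to G_3, only FDH among the 3 passed the size rule, with a log2 fold change of 1.54, or 2.92-fold. Of all genes tested, 2.47% were called higher in that comparison. The differences of FGH and FLD were 0.73 and 0.24, against a median of 0.0013 over all genes. If the label of B_10 is right, scale and feed cannot be told apart here.

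**Figure D1:**
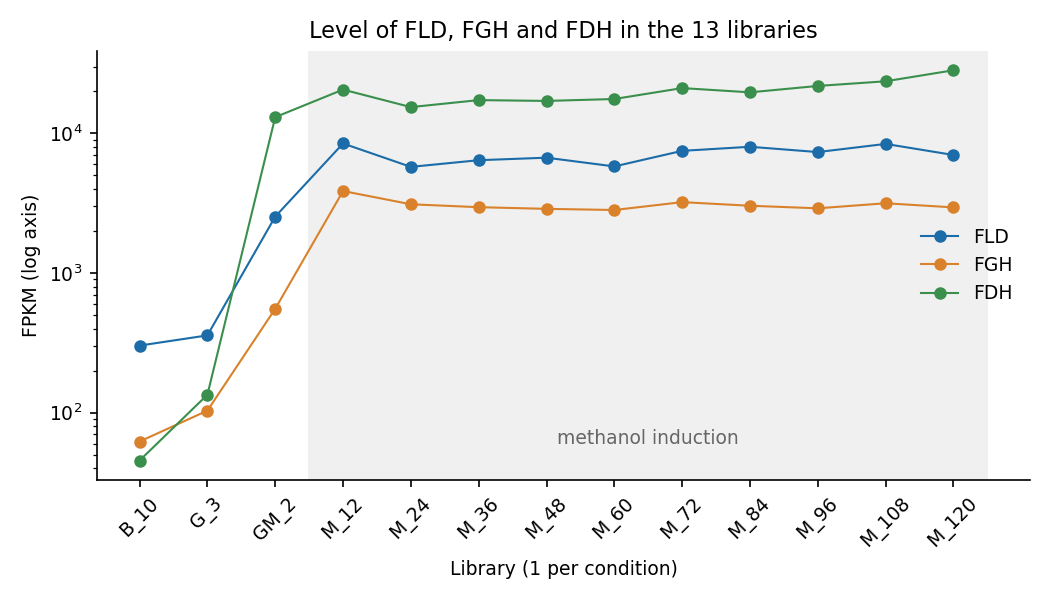
FPKM (log axis) of FLD, FGH and FDH in each of the 13 libraries, 1 point per library, with the methanol induction phase shaded. FDH goes from 134 FPKM in G_3 to 13046 FPKM in GM_2, passing FLD, and all 3 genes lie above their GM_2 level in each of the 10 methanol libraries.

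After 2 h of the glycerol-methanol feed all 3 genes were already higher, FDH by far the most. FDH went from 134 FPKM in G_3 to 13046 FPKM in GM_2, a log2 fold change of 6.59 or 96.3-fold, which was the largest increase of the 5100 genes on this scale. FLD went from 358 to 2532 FPKM, a log2 fold change of 2.82 or 7.06-fold that ranked 28. FGH went from 103 to 554 FPKM, a log2 fold change of 2.41 or 5.31-fold that ranked 52. All 3 genes were called higher, where 6.71% of all genes were.

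The order of the transcripts changed with this step. FDH rose from rank 1107 among all genes in G_3 to rank 3 in GM_2, and its share of all FPKM went from 0.0136% to 1.33%. FLD reached rank 46 and FGH rank 344. In the same library AOX1, which produces the formaldehyde, was at 928 FPKM, and the FPKM of FDH was 14.1 times that of AOX1. That ratio was 4.01 in B_10 and 3.52 in G_3, and in the methanol libraries it lay between 0.780 and 0.930. The ratios to AOX1 were chosen for description after their values were seen, and AOX1 has a close paralog, AOX2, with which it may share reads.

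In methanol induction the 3 genes were called higher than in G_3 in every library. FDH ranged from 15396 to 28257 FPKM with a median of 20096 FPKM, a median log2 fold change of 7.21 (range 6.83 to 7.70) or 148-fold. FGH ranged from 2824 to 3861 FPKM with a median of 2994 FPKM, a log2 fold change of 4.84 (4.76 to 5.21) or 28.7-fold. FLD ranged from 5748 to 8455 FPKM with a median of 7166 FPKM, a log2 fold change of 4.32 (4.003 to 4.56) or 19.98-fold. The ranges of the 3 genes in FPKM do not overlap in these libraries, so FDH was the most abundant throughout, then FLD, then FGH. By size of induction the order was FDH, FGH, FLD, ranks 7, 16 and 22 of the 5100 genes, and 5.82% of all genes were called higher.

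Compared with GM_2, the gene with the least left to gain was FDH. FGH was higher in all 10 methanol libraries, by a median of 2.43 on the log2 scale (2.35 to 2.80) or 5.39-fold. FLD was also higher in all 10, by 1.5 (1.18 to 1.74) or 2.83-fold. FDH lay above GM_2 in all 10 libraries, by 0.62 (0.24 to 1.11), but passed the threshold in 1 of them, M_120, and was not called. Thus 2 of 3 genes were called, where 4.39% of all genes were called higher. Fold changes against G_3 and GM_2 share those libraries and are not independent of each other. GM_2 was sampled at 2 h and the first methanol library at 12 h, so time and the withdrawal of glycerol cannot be told apart.

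**Figure D2:**
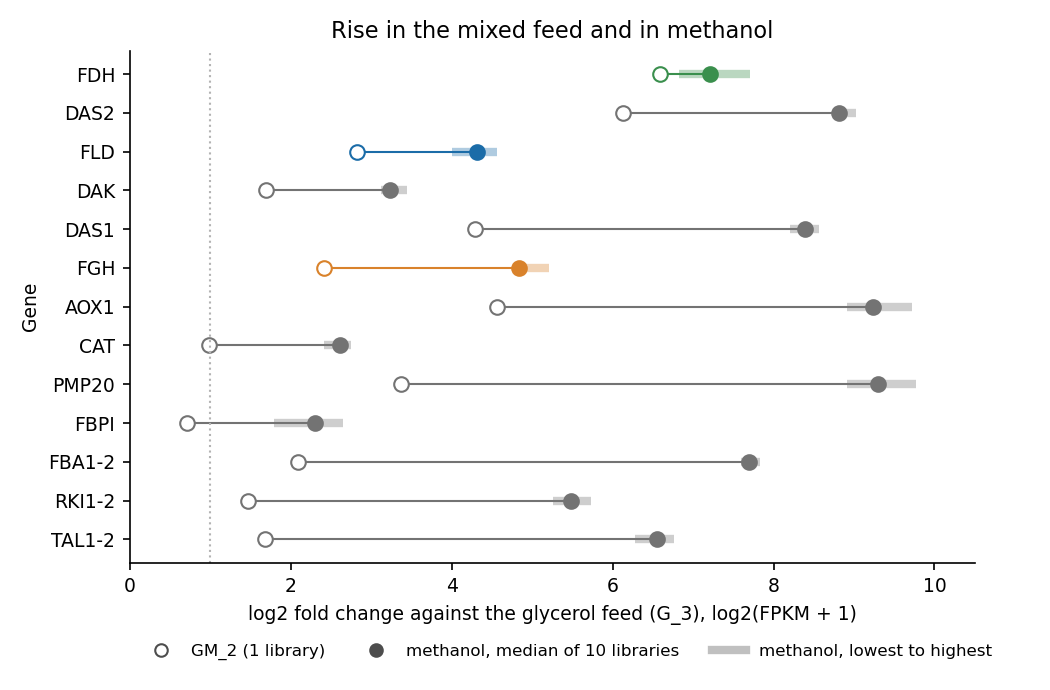
Log2 fold change of FPKM + 1 against G_3 for the 3 genes (coloured) and 10 other genes of methanol use (grey), ordered by the share of the rise present in GM_2. Open circles are the GM_2 library, filled circles the median of the 10 methanol libraries, thick bars their lowest to highest value and the dotted line the threshold of 1; the 2 circles of FDH, at 6.59 and 7.21, are the closest together.

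For each gene the share of the log2 rise from G_3 to the methanol median that was present in GM_2 was computed. GM_2 differs from the methanol libraries in hours and in glycerol, so this share does not measure timing by itself. This share was 91.4% for FDH, 65.3% for FLD and 49.8% for FGH. Taking each methanol library in turn as the end point, it ranged from 85.5 to 96.5% for FDH, from 61.9 to 70.5% for FLD and from 46.3 to 50.7% for FGH, so the 3 ranges do not overlap. On the linear scale, the FPKM in GM_2 amounted to 64.9% of the methanol median for FDH, 35.3% for FLD and 18.5% for FGH.

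Among the 297 genes called higher in methanol than in G_3, the median share was 37.2%, with quartiles of 15.6 and 61.7%. FDH exceeded 265 of them, FLD 231 and FGH 191. A share of 90% or more was found for 33 genes, FDH included, and 37 genes had a share below 0, meaning that GM_2 lay under G_3. The 22 genes that were induced at least as much as FLD include FLD, FGH and FDH. None of the 22 had a larger share than FDH. A larger share than FLD was found for 3, FDH among them, and a larger share than FGH for 8, FDH and FLD among them. The shares rest on 1 library of each feed and describe these libraries.

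**Figure D3:**
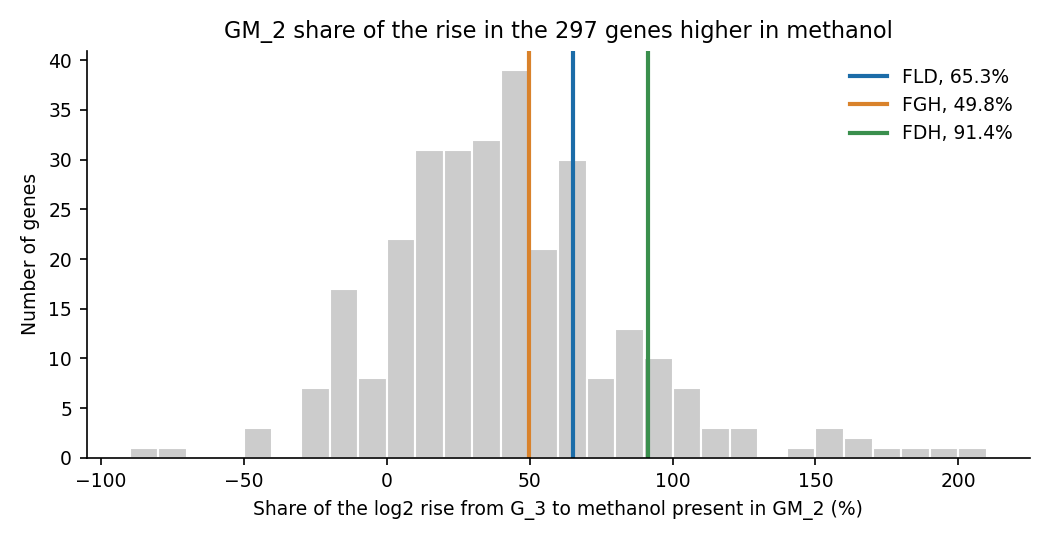
Histogram of the share of the log2 rise from G_3 to methanol that was present in GM_2 (percent, x axis) over the 297 genes called higher in methanol (number of genes, y axis). Vertical lines mark FGH at 49.8%, FLD at 65.3% and FDH at 91.4%, the last in the upper tail of a distribution with a median of 37.2%.

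A list of other genes of methanol use provides the frame for this order. The list holds 10 genes that the study named in these same libraries, so its direction is not independent evidence. Not all of them were reported as rising: for PMP20 the paper states no significant increase during the fermentation, unlike its values below. The list leaves out the cytosolic aldolase and transaldolase, which the paper reports as lower during methanol induction. Also left out are the epimerases, which the paper reports as not differentially regulated, and the second alcohol oxidase. The counts and medians below therefore describe the genes picked, not the whole pathway. In GM_2 against G_3, 8 of the 10 were called higher, with a median of 1.89 against 0.027 over all genes. CAT, the catalase that breaks down hydrogen peroxide, and FBPI, a fructose-bisphosphatase, stayed under the threshold at 0.98 and 0.71. In methanol against G_3 all 10 were called higher, with a median of 7.13 against −0.0069 over all genes. The largest were PMP20, a peroxisomal peroxiredoxin, at 9.30 and AOX1 at 9.24, and the smallest were CAT at 2.61 and FBPI at 2.30. All 10 were also called higher than in GM_2, with a median of 4.06, whereas FDH was not.

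By the GM_2 share, DAS2 was nearest to FLD with 69.5%, and DAK, the dihydroxyacetone kinase, DAS1 and AOX1 were nearest to FGH with 52.2, 51.1 and 49.4%. CAT and PMP20, which act on peroxides, had 37.6 and 36.2%. The listed sugar phosphate enzymes of assimilation had the lowest shares, 31.0% for FBPI, 27.2% for the aldolase FBA1-2, 26.8% for the isomerase RKI1-2 and 25.7% for the transaldolase TAL1-2. FDH stood above all 10 listed genes. DAS1 and DAS2 are close paralogs, and the sources used here do not say how reads were divided between such copies.

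Ratios between the 3 genes do not depend on how a library was scaled, since both values come from the same library. The ratio of FDH to FLD was 0.150 in B_10, 0.376 in G_3 and 5.15 in GM_2. In methanol induction it came back to between 2.43 in M_12 and 4.04 in M_120, with a median of 2.75. Thus the transcript of the final enzyme stood furthest above that of the first in the GM phase, higher than in any methanol library.

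The ratio of FDH to FGH was also highest in GM_2. It was 0.731 in B_10, 1.30 in G_3, 23.5 in GM_2 and 4.96 to 9.59 in methanol induction. FLD to FGH took another course, from 4.86 in B_10, 3.46 in G_3 and 4.57 in GM_2 to between 1.85 and 2.66 in the methanol libraries. FLD therefore exceeded FGH in all 13 libraries, but by less once methanol was the sole feed.

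**Figure D4:**
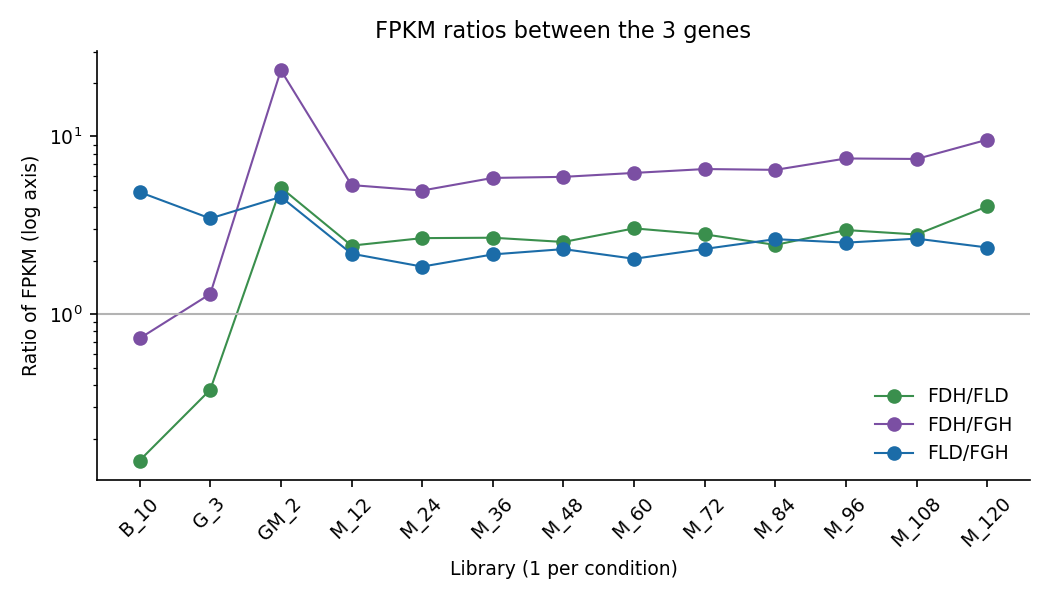
Ratios of FPKM between FDH, FLD and FGH in each of the 13 libraries (log axis, 1 point per library), with a horizontal line at 1. FDH to FLD and FDH to FGH peak in GM_2 at 5.15 and 23.5, and FDH to FGH is at its methanol maximum of 9.59 in M_120.

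Within methanol induction the coefficient of variation over the 10 libraries was 9.69% for FGH, 13.8% for FLD and 18.7% for FDH. FDH was 20551 FPKM in M_12, 15396 in M_24, 17280 in M_36, 17044 in M_48 and 17597 in M_60. It was 21063 FPKM in M_72, 19640 in M_84, 21822 in M_96, 23565 in M_108 and 28257 in M_120. The last value was the highest, and of the early libraries M_12 alone reached into the range of the late ones. FDH was the second most abundant gene from M_24 onward, after AOX1, and took 1.58 to 2.49% of all FPKM in the methanol libraries.

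A line was fitted over the hours with limma across all genes, and its change from 12 to 120 h is given. For FDH it was 0.60 ± 0.17 (SE, 95% confidence interval 0.23 to 0.97, limma adjusted p = 0.052), which missed the threshold of 0.05. For FLD it was 0.19 ± 0.19 (limma adjusted p = 0.574) and for FGH −0.17 ± 0.13 (limma adjusted p = 0.471). None of the 3 was called by limma, where 4.88% of all genes were called higher; at an unadjusted p under 0.05, in either direction, 1 of the 3 passed, FDH at 0.0041, where 25.4% of all genes did.

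FDH lay close to the threshold, and several alternatives moved it across. Without M_12 the change was 0.86 ± 0.12 with a limma adjusted p of 0.0035, which passed, and without M_120 it was 0.45 with a limma adjusted p of 0.235. With all 10 libraries, FDH passed with a pseudocount of 5, with a minimum mean of 10 FPKM and without the limma trend, at limma adjusted p-values of 0.049, 0.048 and 0.045, and without any filter on low values its limma adjusted p was 0.216. Over 18 alternatives the change of FDH lay between 0.41 and 0.86, its limma adjusted p ran from 0.0035 to 0.235, and 4 of them passed. Over the same alternatives FLD lay between −0.0011 and 0.45 and FGH between −0.36 and 0.017, and neither passed in any of them. Rescaling the libraries to the sum of FPKM without the 20 largest genes moved the median drift of all genes to −0.15, with FDH then at 0.44, FLD at 0.033 and FGH at −0.32. The p-values measure scatter about a line within 1 culture.

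**Figure D5:**
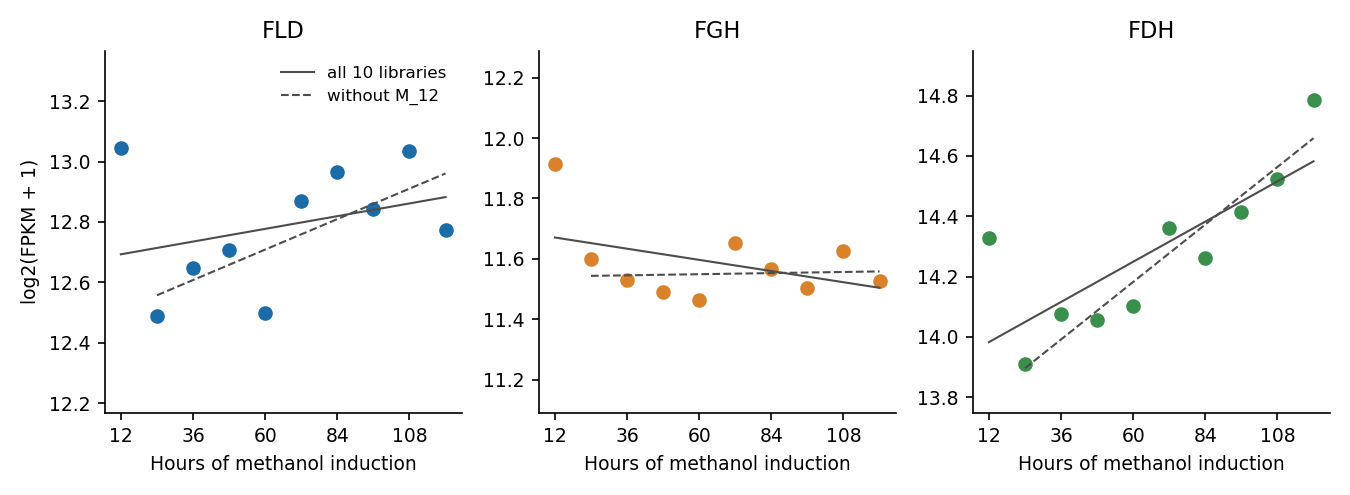
log2(FPKM + 1) of FLD, FGH and FDH against hours of methanol induction, 1 point per library, with y axes of equal length. Solid lines are the fits over all 10 libraries and dashed lines those without M_12; for FDH the fitted change is 0.60 with and 0.86 without it.

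The 5 libraries from 72 h onward were also compared with the 5 up to 60 h. FDH was higher in the late libraries by 0.37 ± 0.11 on the log2 scale (limma adjusted p = 0.109), FLD by 0.22 ± 0.11 (limma adjusted p = 0.318), and FGH differed by −0.026 ± 0.094 (limma adjusted p = 0.911). None of the 3 was called by limma, where 1.37% of all genes were called higher; at an unadjusted p under 0.05, in either direction, 1 of the 3 passed, FDH at 0.0067, where 19.3% of all genes did. FDH ranged from 15396 to 20551 FPKM early and from 19640 to 28257 FPKM late, so the groups overlap through M_12. The exact two-sided permutation test of single genes gave p = 0.0159 for FDH, p = 0.0952 for FLD and p = 0.889 for FGH, unadjusted, with 0.0079 as the smallest p that 252 splits can give. Both tests ignore the order of the libraries, which are serial samples of 1 culture, so their p-values do not measure variation between fermentations. The split at 72 h was taken from earlier work on these same libraries. With the split at 60 h, the difference of FDH was 0.32 with a limma adjusted p of 0.250. Without M_12, FDH passed at 0.43 with a limma adjusted p of 0.038 and FLD at 0.31 with a limma adjusted p of 0.044. Over the alternatives the adjusted p of FDH ran from 0.038 to 0.342 and that of FLD from 0.044 to 0.686.

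The ratios in the late libraries give the same comparison free of scaling, as a description. FDH to FGH was 4.96 to 6.23 in the early and 6.48 to 9.59 in the late libraries, which do not overlap. How many other pairs of genes separate in this way was not determined. FLD to FGH was 1.85 to 2.32 early and 2.33 to 2.66 late, ranges that almost touch. FDH to FLD was 2.43 to 3.04 early and 2.45 to 4.04 late and overlapped.

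Single steps between neighbouring time points were shared by the 3 genes in part. From M_12 to M_24 all 3 were lower, with log2 steps of −0.56 for FLD, −0.42 for FDH and −0.32 for FGH, and 146, 323 and 644 of the 5100 genes had a lower step than each. From M_60 to M_72 all 3 were higher, FLD by 0.37, FDH by 0.26 and FGH by 0.19. Here 4891, 4552 and 4125 of the 5100 genes had a lower step than each. From M_96 to M_108 all 3 were higher as well, FLD by 0.19, FDH by 0.11 and FGH by 0.12. In that step 4383, 3779 and 3854 genes had a lower step. From M_108 to M_120 they parted, with log2 steps of 0.26 for FDH, −0.26 for FLD and −0.098 for FGH. The directions of these steps also held after rescaling to the sum of all FPKM or to that sum without the 20 largest genes. Neighbouring libraries have no replicates, and these steps were not tested. In the steps not listed here the 3 genes did not all move in the same direction.

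The 3 genes were highly correlated over the whole course and less so within methanol, and in neither case were they each other's closest genes. Over all 13 libraries, the Pearson correlation of log2(FPKM + 1) was 0.991 for FLD with FGH, 0.976 for FLD with FDH and 0.955 for FGH with FDH. Over the 10 methanol libraries alone they were 0.587, 0.601 and 0.125. Over all 13 libraries, 9 genes were closer to FGH than FLD was. For FDH, 19 genes were closer than FLD and 75 closer than FGH. Over the 10 methanol libraries these counts were 753, 787 and 2190. The values over 13 libraries include the step into methanol, which all genes called higher there share. All points of a pair share libraries and their scaling, and the correlations are descriptions.

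The genes with the courses most like each of the 3 over all 13 libraries were picked by Pearson correlation. For FLD they were DAS2 at 0.996, the peroxin PEX11 (PAS_chr2-1_0504) at 0.996 and PAS_chr4_0682 at 0.995. For FGH they were DAK at 0.998, AOX1 at 0.997 and DAS1 at 0.996. For FDH they were 3 genes without a name in the tables used, PAS_chr3_0833 at 0.993, PAS_chr3_1024 at 0.992 and PAS_chr1-3_0013 at 0.992. Apart from PAS_chr4_0682, the genes nearest to FLD and FGH were thus named genes of methanol use or peroxisomes, and none of the 3 nearest to FDH was on the methanol list.

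The genes nearest to FDH were expressed at far lower levels. PAS_chr3_0833 was at 23.1 FPKM in G_3, 77.5 FPKM in GM_2 and a median of 95.5 FPKM in methanol. PAS_chr1-3_0013 was at 73.4, 497 and 620 FPKM, and PAS_chr3_1024 at 72.0, 258 and 348 FPKM. Each had most of its log2 rise in GM_2, 85.1% for PAS_chr3_0833, 89.6% for PAS_chr1-3_0013 and 80.9% for PAS_chr3_1024. By number, PAS_chr3_0833 lies between DAS1 and DAS2, and its reads and theirs may not be separable.

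Over the 10 methanol libraries alone the nearest genes were others. For FLD they were the peroxin PEX6 (PAS_chr1-4_0133) at 0.963, PAS_chr1-1_0149 at 0.947 and PAS_chr2-1_0636 at 0.935. For FGH they were PAS_chr1-4_0625 at 0.969, PAS_chr4_0029 at 0.950 and PAS_chr1-4_0700 at 0.930. For FDH they were PAS_chr4_0406 at 0.982, AOX1 at 0.969 and PAS_chr1-4_0225 at 0.966. AOX1 and FDH were both highest in M_120, at 33180 and 28257 FPKM.

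The annotated neighbours of the 3 genes differed in whether they moved along. Beside FGH, PAS_chr3_0866 went from 11.7 FPKM in G_3 and 13.8 FPKM in GM_2 to 88.9 to 122 FPKM in methanol, a log2 fold change of 2.96 against G_3. On its other side, PAS_chr3_1231 went from 19.2 and 37.8 FPKM to 97.6 to 136 FPKM, a log2 fold change of 2.53. Both were called higher in methanol than in G_3 and than in GM_2.

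Beside FLD, PAS_chr3_1029 was at 12.0 FPKM in G_3, 67.3 FPKM in GM_2 and a median of 29.0 FPKM in methanol. It was called higher in methanol than in G_3, at 1.21, and was highest in the GM phase. PAS_chr3_1027, on the other side of FLD, was not called, at −0.057. Beside FDH neither gene was called in methanol against G_3: PAS_chr3_0931 was at 88.7 FPKM in G_3, 214 FPKM in GM_2 and a median of 96.5 FPKM in methanol, and PAS_chr3_1241 differed by 0.53. The sources used here do not give the strand of these genes or whether they overlap. Reads running from one gene into the next cannot be told apart from the neighbour's own.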

How the data were processed

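Alignment of the paired reads was done by the authors with HISAT2 2.0.5, and they deposited 1 FPKM value per gene and library. The sources used here name neither the genome build, the counting tool nor the use of strand. Median-of-ratios factors computed from the deposited FPKM were equal in all 13 libraries, while the sums of FPKM differed. The deposited values thus already carry a scaling between libraries of this kind. All-gene medians of fold changes near 0 follow from that scaling and are not a result. Fragments were estimated from the smallest FPKM steps, with the depth searched only within a range set in advance. Of the low values checked in each library, 86.0 to 97.4% came out whole within 0.01 fragments. That check used 24 to 57 values per library, among them those that set the depth, so it is not independent.

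Values were analysed as log2(FPKM + 1) for genes whose mean was 1 FPKM or more, so fold changes of low genes are understated. Feeds were compared by a size rule of 1 on the log2 scale without p-values. Drift and late against early libraries were tested with limma 3.58.1 in R 4.3.3 with empirical Bayes trend and Benjamini-Hochberg adjustment over 5100 genes. The drift fit was also run on simulated data with independent noise in each library, which does not mimic serial samples of 1 culture. Other work used Python 3.11.15. Locus names and neighbours came from the RefSeq table of assembly ASM2700v1, to which 5040 identifiers matched; as it gives no product names, lists by product were not made. Named genes were the 3 genes, their 6 neighbours, the 3 most alike to each, and the methanol list. Members and lists were chosen with earlier results of these data known. Alternatives changed the pseudocount, filter, threshold, scaling, reference, libraries used, split hour and limma settings. Sequences were not used here.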

Additional observations from a re-analysis of the deposited data

Results flagged for a closer look

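In groups of 10 methanol libraries, 16 sets of values were examined for a single library far from the others. The sets were the levels of the 3 genes and of the 10 other genes of methanol use, and the 3 ratios. Of these sets 2 were flagged, both among the 3 genes and their ratios, where chance alone gives about 1 in 20. FGH in M_12 was at 3861 FPKM, with the next library, M_72, at 3215 FPKM. The FDH to FLD ratio in M_120 was 4.04, with the next, M_60, at 3.04. Without M_12 the fitted drift of FGH was 0.017 in place of −0.17, with limma adjusted p-values of 0.930 and 0.471.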

How the results depend on the processing

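The calls of the 3 genes in GM_2 against G_3 and in methanol against G_3 held under every alternative run. A threshold of 0.5 called 2 of the 3 in G_3 against B_10, FGH at 0.73 being added, and a threshold of 1.5 left 1 of the 3 in methanol against GM_2, since FLD lies at 1.5 with libraries below. In the drift, 1 gene, FDH, was called with a pseudocount of 5 (0.60, limma adjusted p = 0.049), with a mean FPKM of at least 10 (0.60, 0.048) and without the limma trend (0.60, 0.045); over all alternatives its adjusted p ran from 0.0035 to 0.235. FLD turned to −0.0011 after rescaling to the sum of all FPKM, an alternative added after the data were seen. In late against early, FDH at 0.37 passed the exact permutation test of single genes, unadjusted p = 0.0159, which ignores the order of the serial libraries. The GM_2 share of FGH was 56.3% with B_10 as reference, and with M_12 as end point it was 46.3% and that of FLD 61.9%; the order of the 3 held.

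Leaving out 1 methanol library in turn called 0 to 1 of the 3 genes in the drift and 0 to 2 in late against early. The drift was 0.45 to 0.86 for FDH, 0.075 to 0.45 for FLD and −0.22 to 0.017 for FGH. Late against early was 0.30 to 0.43 for FDH, 0.17 to 0.31 for FLD and −0.060 to 0.053 for FGH, the positive ends of FGH being without M_12. The cause of these changes was not tested.

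Over all genes, the counts higher and lower at thresholds of 0.5 and 1.5 were 1010 and 902 against 154 and 104 in GM_2 against G_3 (342 and 267 at 1), 723 and 651 against 154 and 48 in methanol against G_3 (297 and 161), 583 and 672 against 93 and 57 in methanol against GM_2 (224 and 204), and 553 and 401 against 46 and 9 in G_3 against B_10 (126 and 40). Rescaling without the 20 largest genes gave 190 higher and 27 lower in G_3 against B_10, 355 and 115 in methanol against G_3, and moved the all-gene medians to 0.14 and 0.11. With B_10 as reference 282 were lower in methanol. The drift called 249 higher and 143 lower, 504 in both directions and 373 of them lower without the 20 largest genes, 775 and 640 after rescaling to the sum of all FPKM, and from 107 and 38 without M_120 to 335 and 255 without M_12. Late against early called 70 and 51, with 40 and 57 after the first rescaling and 34 and 70 after the second, 18 lower with a split at 60 h, and 13 to 183 and 8 to 135 leaving out 1 library. No paired analysis was possible because each condition has 1 library.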
